A study of Mus musculus with 15 samples.

Results

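Between Wbp11 and Kcnj8, towards the distal end of mouse chromosome 6, lie 10 genes whose hippocampal expression differed between the senescence-accelerated mouse line SAMP8 and its senescence-resistant counterpart SAMR1. They are, in reference order, Wbp11, Rerg, Ptpro, Eps8, Plekha5, Pde3a, Slco1c1, Recql, Gys2 and Kcnj8. The members were selected on their log2 differences between sedentary SAMP8 and sedentary SAMR1 in these same arrays, so those differences are given as a description and without p-values. All 17 probes annotated to the 10 genes that had values were used, of 34479 probes and 16401 named genes in all. A further 3 probes annotated to Rerg, Ptpro and Pde3a had no value on any array. Whole hippocampus of adult female mice was profiled on 15 1-colour arrays, 5 each for sedentary SAMR1 mice, sedentary SAMP8 mice and exercised SAMP8 mice. SAMR1 mice were studied sedentary only, and neither their age beyond adult nor the kind of exercise is stated in the labels. Arrays carry replicate numbers 1 to 5, described as biological, but whether each stands for a separate animal is not said, so every error and p-value reflects the spread among these arrays. SAMP8 and SAMR1 are inbred lines, so each stands for 1 genotype, and a difference between them cannot be assigned to any single locus here.

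The genes of the block have unrelated jobs. Wbp11 encodes a nuclear protein of pre-mRNA splicing, Recql a DNA helicase of the RecQ family, and Rerg a small GTPase related to Ras. Ptpro is a receptor-type tyrosine phosphatase found on podocytes and neurons, Eps8 caps and bundles actin filaments and acts in growth factor signalling and dendritic spines, and Plekha5 is a phosphoinositide-binding pleckstrin homology protein. Slco1c1 carries thyroxine across the endothelium of brain vessels, Kcnj8 is Kir6.1, the pore of the ATP-sensitive potassium channel of pericytes and smooth muscle, Pde3a breaks down cyclic AMP in vessels, heart and platelets, and Gys2 is the liver form of glycogen synthase.

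The arrays had nearly equal median intensities, between 207.75 and 208.67, and no pair shared more than 0.125% of identical values. A floor of 39.17, the 5th percentile, replaced any lower intensity before log2 was taken, so the lowest possible value is 5.29. The levels of 12 measured markers of hippocampal neurons were looked up, among them the granule cell gene Prox1 and the CA1 gene Wfs1. All 12 lay above the median gene, from the 58.4th to the 98.4th percentile of mean level. So did 10 of 10 astrocyte markers, so these levels do not set hippocampus apart from other brain tissue. The number of arrays limits the precision, and the median standard error of a difference between groups was 0.12 on the log2 scale over all genes.

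With the brightest probe of each gene, 8 of the 10 were higher in sedentary SAMP8 than in SAMR1 and 2, Plekha5 and Slco1c1, were lower. Other probes of Recql and Plekha5 did not share the direction of the brightest. The widest differences, about 2-fold, were in Wbp11, Eps8 and Plekha5. All 10 were called at an adjusted p under 0.05, but they had been selected on these same differences. The uncharacterised gene BC049715, in the same span, was also called without being a member. In this comparison 2.63% of all genes were called, 1.46% higher and 1.16% lower. The fit took the groups as unpaired, although same-numbered sedentary arrays deviated together, as described under the processing. In log2 terms the members differed by a median of 0.61 in size, against 0.10 over all genes. Leaving out 1 array at a time kept every direction, but it could not turn a member whose groups do not overlap. Between 7 and 10 of the 10 stayed called. The number was 7 without SAMR1 replicate 2, without SAMR1 replicate 5 or without sedentary SAMP8 replicate 3. The calls lost in any of these 15 repeats were those of Kcnj8, Rerg, Gys2, Ptpro and Slco1c1. In 9 of the 10, all 5 arrays of one line lay above all 5 of the other, as they did in 4.19% of all genes. In whole tissue, fewer cells of a type and less RNA per cell cannot be told apart.

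**Figure D1:**
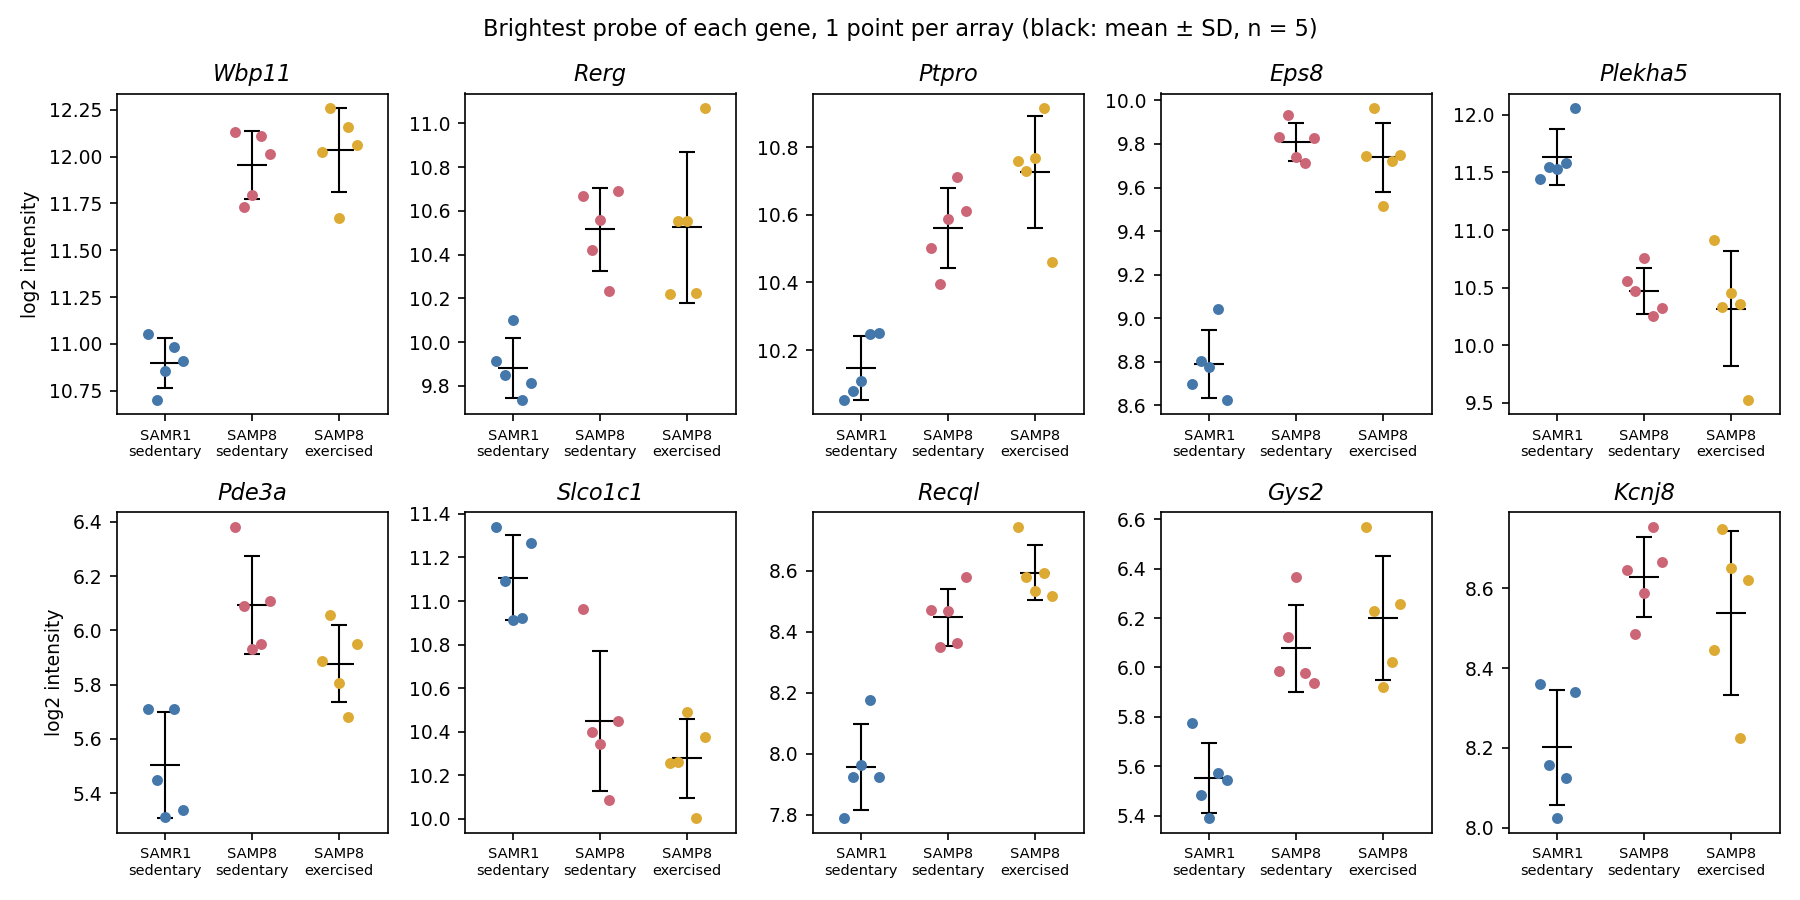
Log2 intensity of the brightest probe of each of the 10 genes, with 1 point per array in 3 groups of 5 and the mean ± SD in black; the vertical axes differ between panels. The SAMP8 groups lie together on one side of SAMR1 in Wbp11 and Eps8 (higher) and in Plekha5 (lower), while in Slco1c1 1 sedentary SAMP8 array, at 10.96, lies within the SAMR1 range.

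Wbp11, the splicing protein, was measured by 1 probe. Its log2 intensities on SAMR1 arrays 1 to 5 were 11.05, 10.70, 10.85, 10.98 and 10.91. On the sedentary SAMP8 arrays they were 12.13, 11.73, 11.80, 12.11 and 12.01, and on the exercised SAMP8 arrays 12.03, 12.26, 11.67, 12.16 and 12.06. All 10 SAMP8 arrays lay above all 5 SAMR1 arrays, and the SAMP8 groups overlapped each other. The level was 2.08-fold higher in sedentary SAMP8 (log2 difference 1.06 ± 0.12, SE, n = 5 per group) and 2.19-fold higher in exercised SAMP8 (1.13 ± 0.12) than in SAMR1.

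Eps8, the actin-capping protein, had 2 probes, whose differences had the same sign but not the same size. Its brighter probe read 8.70, 8.81, 8.77, 9.04 and 8.63 on the SAMR1 arrays. It read 9.83, 9.93, 9.74, 9.71 and 9.83 on the sedentary and 9.75, 9.96, 9.51, 9.72 and 9.75 on the exercised SAMP8 arrays. Every SAMP8 array was above every SAMR1 array, and the difference between the sedentary lines was 1.02 ± 0.09, or 2.03-fold. The dimmer probe differed by 0.31 ± 0.11, and its groups overlapped: the SAMR1 arrays reached from 7.63 to 7.96 and the sedentary SAMP8 arrays from 7.87 to 8.40.

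Plekha5, the pleckstrin homology protein, was the gene of the block with the largest decrease, and that decrease was seen with 1 of its 3 probes. The brightest probe read 11.45, 11.55, 11.53, 11.58 and 12.06 in SAMR1. It read 10.55, 10.47, 10.76, 10.25 and 10.32 in sedentary SAMP8, and 10.92, 10.33, 10.45, 10.36 and 9.53 in exercised SAMP8. With this probe all SAMP8 arrays lay below all SAMR1 arrays, and sedentary SAMP8 was 2.23-fold lower (log2 difference -1.16 ± 0.20). The other probes did not share the direction. Feature 22577, annotated like the brightest probe to the RefSeq mRNA, differed by 0.07 ± 0.12, with SAMR1 arrays from 9.49 to 10.003 and sedentary SAMP8 arrays from 9.63 to 9.94. Feature 23346, annotated to a GenBank cDNA, differed by 0.39 ± 0.17, and its groups overlapped too. Averaged over the 3 probes the difference was -0.23 ± 0.14.

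Recql, the RecQ helicase, had 2 probes that differed between the lines in opposite directions. The brighter probe read 7.79, 7.92, 7.96, 8.18 and 7.92 in SAMR1, 8.47, 8.35, 8.47, 8.36 and 8.58 in sedentary SAMP8, and 8.75, 8.58, 8.53, 8.59 and 8.52 in exercised SAMP8. The dimmer probe, annotated to a GenBank cDNA, read 6.74, 6.57, 6.44, 6.41 and 6.53 in SAMR1, 6.08, 5.90, 6.20, 6.04 and 6.05 in sedentary SAMP8, and 5.82, 5.90, 5.88, 5.88 and 5.40 in exercised SAMP8. With the first probe all SAMP8 arrays were above SAMR1, and with the second all were below. The differences between the sedentary lines were 0.49 ± 0.08 and -0.48 ± 0.10. Their average was 0.00 ± 0.07, so no direction can be given for the gene as a whole.

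**Figure D2:**
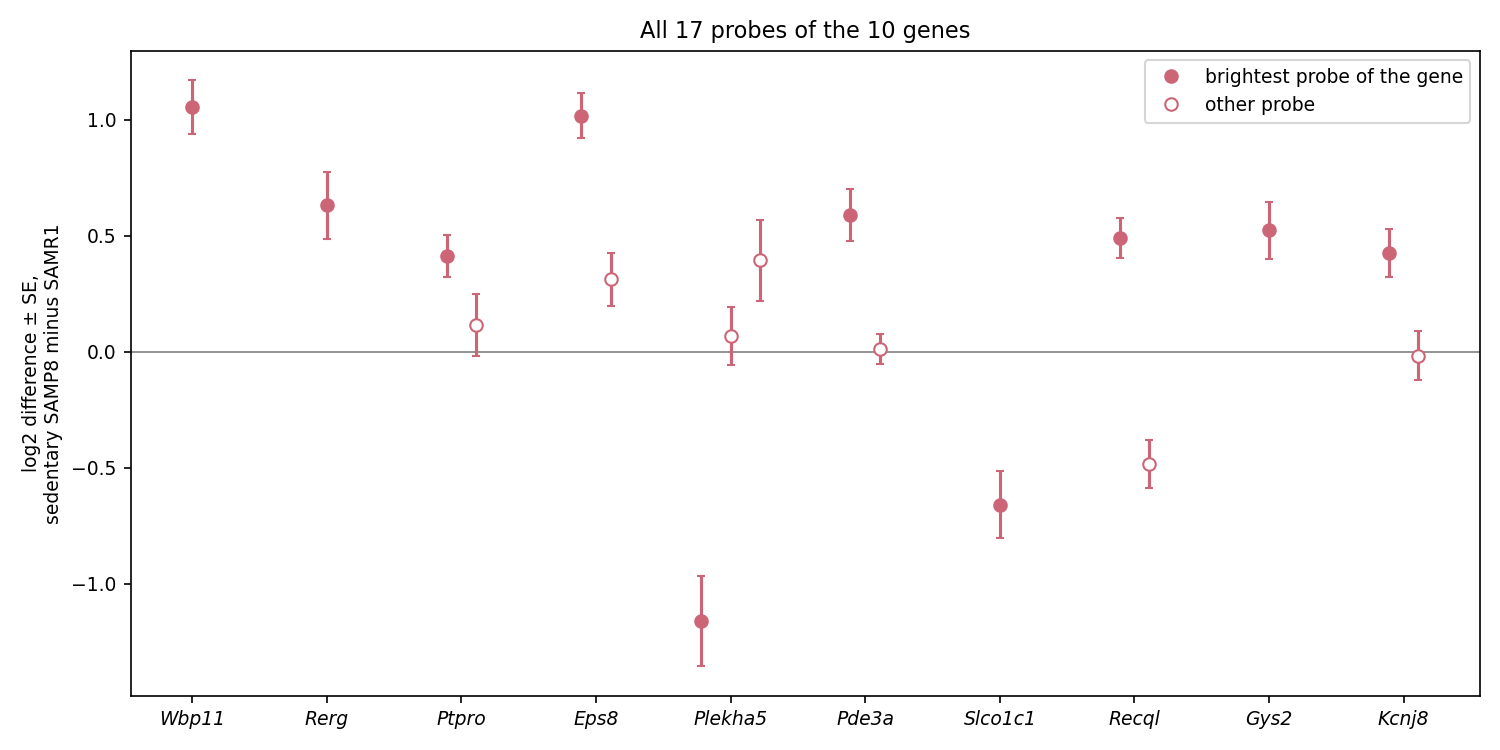
Log2 difference of sedentary SAMP8 minus SAMR1 (vertical axis, ± SE, n = 5 per group) for all 17 probes of the 10 genes; filled points are the brightest probe of a gene and open points its other probes. The open points of Plekha5 (0.07 and 0.39) and Recql (-0.48) lie on the other side of 0 from the filled ones (-1.16 and 0.49), and those of Pde3a and Kcnj8 lie near 0.

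Kcnj8, the Kir6.1 channel pore, was higher in sedentary SAMP8 with 1 of its 2 probes, which are annotated to the same RefSeq mRNA. The brighter probe read 8.36, 8.16, 8.02, 8.13 and 8.34 in SAMR1. It read 8.65, 8.48, 8.59, 8.75 and 8.67 in sedentary SAMP8 and 8.45, 8.75, 8.65, 8.23 and 8.62 in exercised SAMP8. The sedentary groups did not overlap, and the exercised group overlapped both. The difference between the sedentary lines was 0.43 ± 0.10, or 1.34-fold. With the dimmer probe it was -0.02 ± 0.11, and the SAMR1 arrays (6.47 to 6.83) covered the range of the sedentary SAMP8 arrays (6.55 to 6.81).

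Slco1c1, the thyroxine transporter, was measured by 1 probe and was the only member whose sedentary groups overlapped. It read 11.34, 11.09, 10.91, 10.92 and 11.27 in SAMR1. It read 10.96, 10.40, 10.34, 10.09 and 10.45 in sedentary SAMP8 and 10.25, 10.26, 10.49, 10.002 and 10.38 in exercised SAMP8. Sedentary SAMP8 replicate 1 lay above SAMR1 replicates 3 and 4, and all 5 exercised arrays lay below every SAMR1 array. Sedentary SAMP8 was 1.58-fold lower than SAMR1 (-0.66 ± 0.14).

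Slco1c1 and Kcnj8 are the members tied most closely to brain vessels, and they differed in opposite directions. The 250 bases before the annotated start of each are shown for that reason, as the stretch directly upstream of each gene. The letters are RefSeq's for the reference genome GRCm38.p6 (strain C57BL/6J) and not those of SAMP8 or SAMR1. Capitals mark the match to 1 of 4 searched motifs. They were the CCAAT box (CCAAT), the GC box (GGGCGG), the TATA box (TATAAA) and the E-box (CACGTG), each searched on both strands and none overlapping another here.
Slco1c1, chr6:141524104-141524353, plus strand: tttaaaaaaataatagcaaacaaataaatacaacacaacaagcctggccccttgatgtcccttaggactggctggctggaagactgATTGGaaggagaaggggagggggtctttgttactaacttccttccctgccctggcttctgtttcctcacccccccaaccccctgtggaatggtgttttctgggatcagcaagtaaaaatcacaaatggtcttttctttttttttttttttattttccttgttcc
Kcnj8, chr6:142571615-142571864, minus strand: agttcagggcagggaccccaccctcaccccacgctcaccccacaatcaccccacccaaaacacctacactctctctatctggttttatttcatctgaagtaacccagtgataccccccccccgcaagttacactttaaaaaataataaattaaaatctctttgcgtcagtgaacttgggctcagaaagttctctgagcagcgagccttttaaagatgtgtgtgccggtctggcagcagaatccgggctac
The Slco1c1 stretch held CCAAT once, on the opposite strand, starting 164 bases before the start, and the Kcnj8 stretch held none of the 4. CCAAT was found on either strand in 33.8% of the 32851 upstream stretches of this length in the table, GGGCGG in 32.7%, TATAAA in 12.4% and CACGTG in 6.02%. The G and C content was 42.8% for Slco1c1 and 49.2% for Kcnj8. Rerg, Eps8, Pde3a and Gys2 were not matched in that table.

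The remaining 4 members were higher in sedentary SAMP8 by 1.33-fold to 1.55-fold. Rerg, the Ras-like GTPase, ranged from 9.74 to 10.10 in SAMR1 and from 10.24 to 10.69 in sedentary SAMP8 (0.63 ± 0.14). The brighter probe of Ptpro ranged from 10.05 to 10.25 and from 10.40 to 10.71 (0.41 ± 0.09). In both genes the sedentary lines were separate, but the dimmer Ptpro probe, annotated to the same mRNA, differed by 0.11 ± 0.13 with overlapping groups.

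Pde3a and Gys2 were dim, at the 12.5th and 15.02th percentile of mean level. Pde3a, the cyclic AMP phosphodiesterase, ranged from 5.31 to 5.71 in SAMR1 and from 5.93 to 6.38 in sedentary SAMP8 (0.59 ± 0.11). Gys2, the liver glycogen synthase, ranged from 5.39 to 5.78 and from 5.94 to 6.36 (0.52 ± 0.12). These SAMR1 values lay close to the floor of 5.29, so both differences depend on where the floor is set: with the floor at the 20th percentile, an intensity of 63.65, they were 0.12 ± 0.06 and 0.10 ± 0.10. The Pde3a values come from a probe annotated to a GenBank cDNA. The other Pde3a probe, annotated to the RefSeq mRNA, was at the floor on 11 of 15 arrays, including all 5 SAMR1 arrays, and gave no measurable level there.

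Taking the probes singly, 11 of the 17 were called in the sedentary comparison, against 2.26% of all 34479 probes, and SAMP8 was the higher line with 8 of them. The groups of 10 probes did not overlap, against 3.93% of all probes. The 11 called probes include the brightest probe of every member, and the genes were selected on these differences, so these shares describe the selection. The 6 that were not called were further, dimmer probes of Ptpro, Eps8, Plekha5, Pde3a and Kcnj8. Of the 6 genes with several probes, only Recql had more than 1 called, and its 2 probes went in opposite directions.

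Reference order places 29 measured genes from Wbp11 to Kcnj8, so 19 genes that are not members lie among the 10. These 19 were left out of the list partly because they did not differ, and their values are given as a description of how members and other genes alternate. Their median size of difference between the sedentary lines was 0.09, near the 0.10 of all genes. Strap, next to Eps8 and known as a part of the SMN complex, differed by 0.00 ± 0.08. Golt1b, a Golgi transport gene next to Recql, differed by -0.07 ± 0.09, and Ldhb, the lactate dehydrogenase subunit that lies between Gys2 and Kcnj8 and was at the 99.5th percentile of level, differed by -0.09 ± 0.12. Members and genes with differences near 0 were thus interleaved, and among the 29 the members Rerg, Ptpro and Eps8 were the only run of 3 members in a row.

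Differences of further immediate neighbours of the members ran from -0.24 to 0.26. Pde6h, a cone phosphodiesterase subunit before Rerg, differed by 0.00 ± 0.12, and Plcz1, a sperm phospholipase before Plekha5, by 0.12 ± 0.12. Aebp2, a partner of Polycomb repressive complexes between Plekha5 and Pde3a, differed by -0.24 ± 0.12. Slco1a4, an organic anion transporter of the same family as Slco1c1 and next to it, differed by -0.01 ± 0.11. Pyroxd1, an oxidoreductase beside Recql, differed by -0.01 ± 0.11, and Spx, the spexin hormone gene before Gys2, by 0.26 ± 0.12. None of these 6 was called.

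A single gene among the 19 was called, the uncharacterised gene BC049715, which follows Wbp11 directly, and it was named after its values were seen. It was lower in SAMP8, with SAMR1 arrays from 6.37 to 6.61 and sedentary SAMP8 arrays from 5.29 to 5.39 (-1.14 ± 0.10). Of the 5 sedentary SAMP8 arrays 3 were at the floor, so the size of that difference depends on the floor. In the RefSeq table Wbp11 reads on the minus strand and BC049715 on the plus strand, and their spans overlap at their starts. Whether either probe also reads its neighbour was not tested. Mgp, matrix Gla protein of vessel walls and cartilage, differed by 0.89 ± 0.28 without being called, and its SAMR1 arrays (9.03 to 10.45) overlapped those of sedentary SAMP8 (9.88 to 11.06).

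Beyond the ends of the block the 10 nearest measured genes on each side held no called gene, against 2.63% called of all genes. With so low a share and so few genes, the lack of calls there does not mark an end of the block. Before Wbp11, H2aj, a histone variant gene, differed by -0.01 ± 0.10. The 10 differences there reached from -0.22 to 0.30, with a median size of 0.18. After Kcnj8, Abcc9, which encodes the sulfonylurea receptor SUR2 that pairs with Kir6.1, differed by -0.18 ± 0.13. The 10 differences there reached from -0.48 to 0.47, with a median size of 0.17, against 0.10 over all genes. The member with the smallest margin inside the threshold was Kcnj8 (0.43 ± 0.10), and the neighbour closest to the threshold without passing it was Etnk1, an ethanolamine kinase beyond Kcnj8 (0.47 ± 0.13), whose sedentary groups did not overlap.

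**Figure D3:**
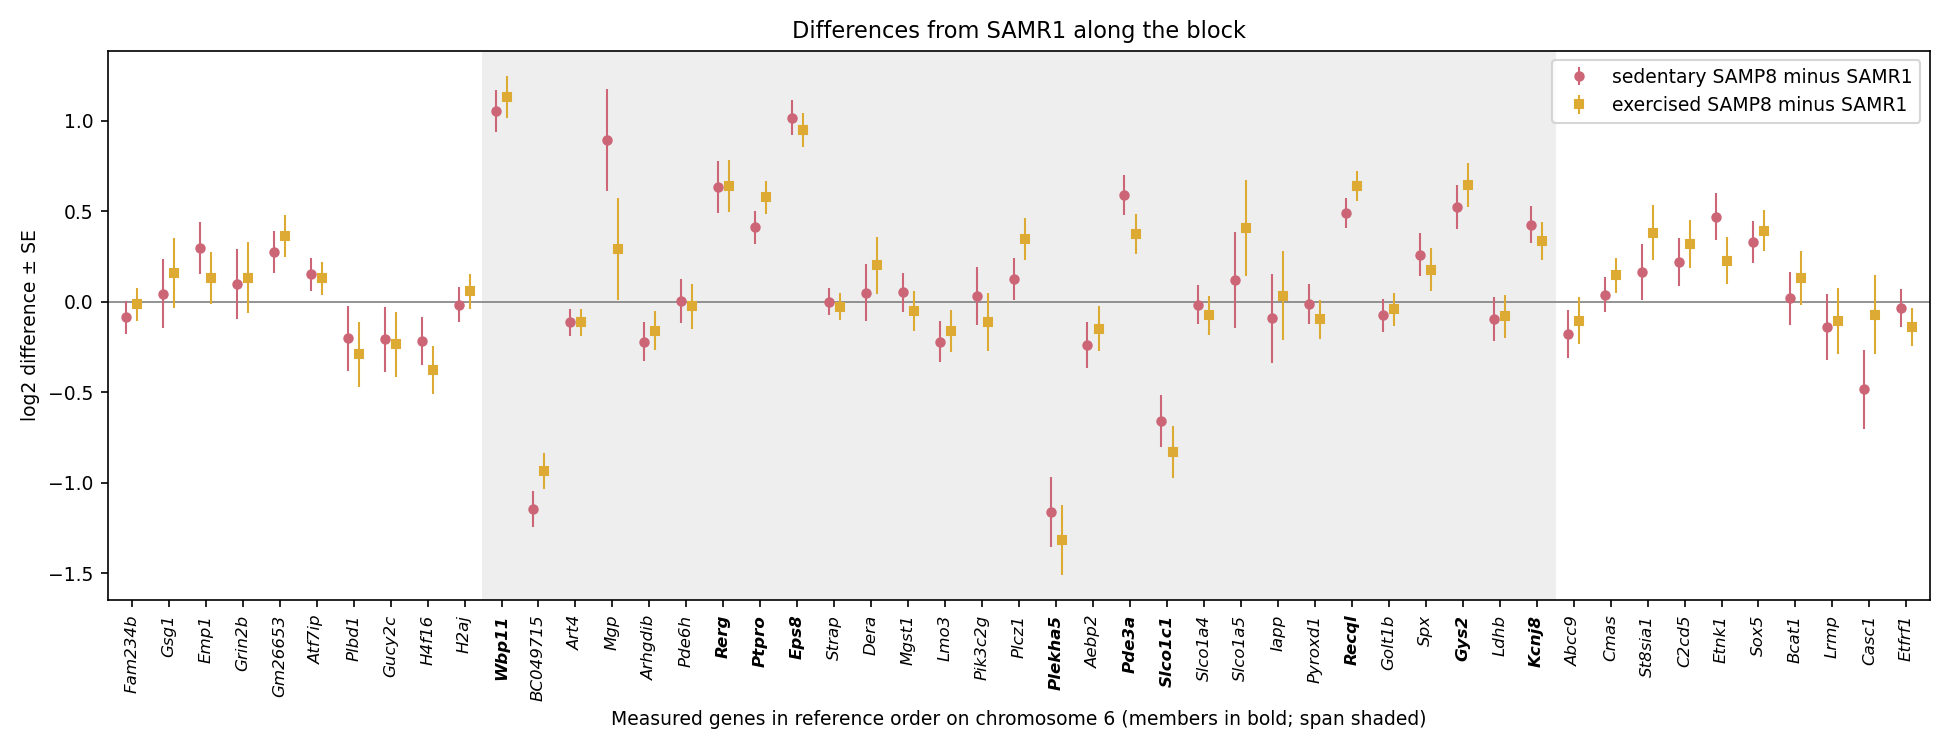
Log2 difference from SAMR1 (vertical axis, ± SE) of 49 measured genes in reference order on chromosome 6, for sedentary SAMP8 (circles) and exercised SAMP8 (squares); both use the same 5 SAMR1 arrays. Members, in bold within the shaded span, and BC049715 stand away from 0, as does Mgp for sedentary SAMP8 (0.89 ± 0.28, not called). Most genes between and beyond them lie nearer to 0.

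Exercise was compared with rest within SAMP8, a contrast that was not used to list the genes but that shares the sedentary SAMP8 arrays with the one that was. None of the 10 genes was called by limma (adjusted p = 1 for each), and none of all 16401 genes was either (0%). Without exercised replicate 3, 1 gene was called, and it was no member. Without adjustment 573 genes (3.49%) had a p under 0.05, and 0 of the 10 members did. Exercised arrays were higher in 5 of the 10 and lower in the other 5, and the differences ran from -0.22 for Pde3a to 0.16 for Ptpro. The 95% intervals show which sizes remain compatible with these arrays. For Wbp11 the interval ran from -0.17 to 0.32 around a difference of 0.08 ± 0.12. For Eps8 it ran from -0.27 to 0.13 around -0.07 ± 0.09, and for Slco1c1 from -0.48 to 0.13 around -0.17 ± 0.14. The widest was that of Plekha5, from -0.57 to 0.26, where exercised replicate 5, at 9.53, lay below the other 4 (10.33 to 10.92). Without that array the Plekha5 difference was 0.04 and that of Rerg -0.13, each with its sign turned. A miss of the threshold does not show that exercise had no effect on these genes.

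Among single probes the lowest p for exercise was that of the dimmer Recql probe, with an unadjusted p of 0.0164 by limma and an adjusted p of 1. It was 0.28 ± 0.10 lower on the log2 scale in exercised than in sedentary SAMP8, with an interval of -0.50 to -0.06. It was the only 1 of the 17 with an unadjusted p under 0.05. The brighter Recql probe differed by 0.15 ± 0.08 in the other direction.

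**Figure D4:**
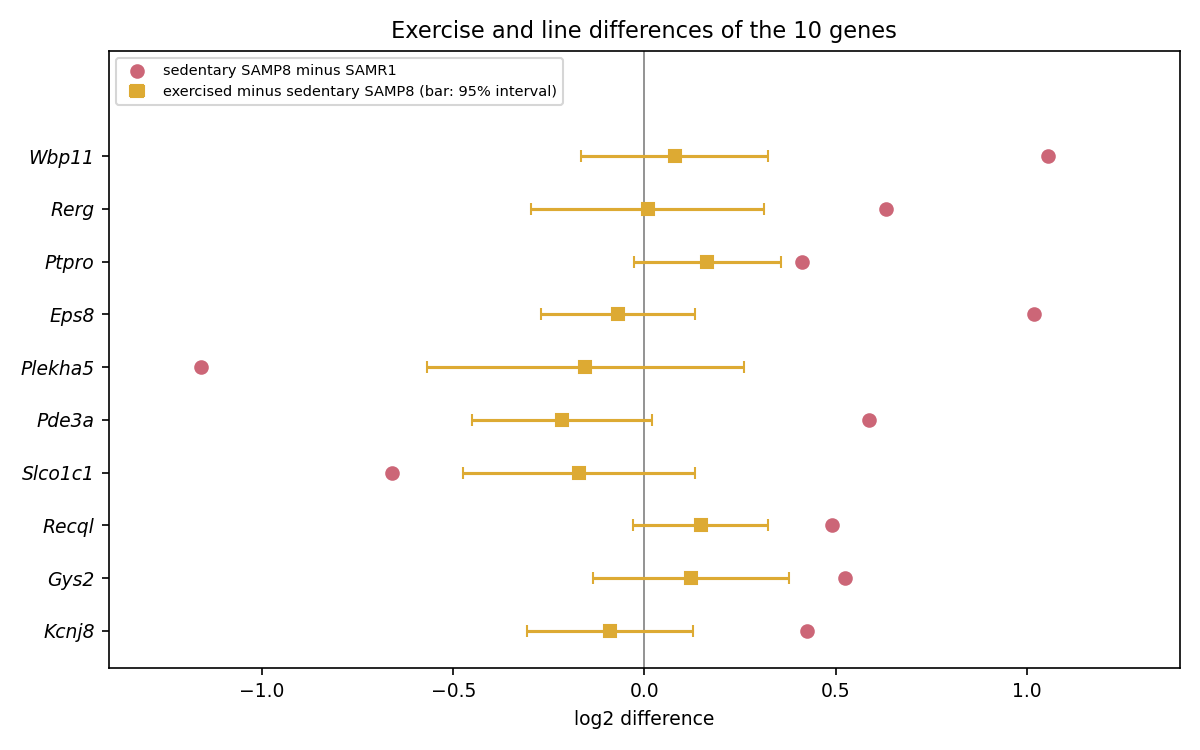
Log2 differences of the 10 genes (horizontal axis): exercised minus sedentary SAMP8 as squares with 95% intervals, and sedentary SAMP8 minus SAMR1 as circles without error bars. Every interval for exercise includes 0. The circles are the differences on which the genes were selected and share the sedentary SAMP8 arrays with the squares, so their sizes are not compared.

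Exercised SAMP8 was also set against sedentary SAMR1. Because this comparison shares the SAMR1 arrays with the one that chose the genes, its values are placed beside the first and not taken as a repeat of it. By their brightest probes 8 of the 10 were called, 6 higher and 2 lower in SAMP8, against 3.6% of all genes (1.75% higher and 1.85% lower). The groups of 8 members did not overlap, against 4.9% of all genes. The differences were 0.64 ± 0.14 for Rerg, 0.58 ± 0.09 for Ptpro, 0.95 ± 0.09 for Eps8 and -1.31 ± 0.20 for Plekha5. They were -0.83 ± 0.14 for Slco1c1, 0.64 ± 0.08 for Recql and 0.65 ± 0.12 for Gys2. Pde3a (0.37 ± 0.11) and Kcnj8 (0.34 ± 0.10) were the 2 that were not called. Without exercised replicate 4, Kcnj8 was called as well (0.41). BC049715 was lower here as well (-0.94 ± 0.10), with no exercised array at the floor. Of the single probes of the block 9 of 17 were called, against 3.25% of all probes, and 9 did not overlap, against 4.62%.

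Cell type markers that fit the tissue were set beside the block, since several members belong to vessels. Pericyte and smooth muscle markers were higher in sedentary SAMP8 in 5 of 14 measured genes, and their mean log2 level per array ranged from 8.17 to 8.76 in SAMR1 and from 8.77 to 9.08 in sedentary and 8.78 to 9.04 in exercised SAMP8. Endothelial markers were higher in 1 of 16, Abcb1a, with means of 8.43 to 8.80 in SAMR1, 8.81 to 8.96 in sedentary and 8.76 to 8.98 in exercised SAMP8. Neither list's means overlapped between the sedentary lines, but both gaps were narrow. They ran from 8.764 to 8.770 for pericyte and smooth muscle markers and from 8.797 to 8.813 for endothelial markers. The endothelial mean includes Abcb1a, which differed by 1.28, while the median endothelial marker differed by 0.11. Whether the endothelial means stay separate without Abcb1a was not tested. Meningeal and fibroblast markers were higher in 5 of 12 (8.67 to 9.84 in SAMR1, 9.72 to 10.63 in sedentary and 9.31 to 10.23 in exercised SAMP8). Choroid plexus and ependyma markers were called in 0 of 11 (8.29 to 9.71, 7.52 to 9.53 and 6.99 to 9.49). Their differences between the sedentary lines were positive in 2 of 11, with a median of -0.65. Between exercised SAMP8 and SAMR1 they were positive in 1 of 11, with a median of -0.92. No marker of these 4 lists was at the floor on every array, and Abcb1a, Des and Slc4a5 were at the floor on some. Between the sedentary lines, astrocyte, microglial and oligodendrocyte markers were called in 0 of 10, 0 of 9 and 0 of 9, and hippocampal neuron markers in 1 of 12, Spink8. Between exercised SAMP8 and SAMR1, 3 of 9 oligodendrocyte markers were lower and 2 of 12 neuron markers higher, with 0 of 10 astrocyte and 0 of 9 microglial markers called. In that comparison 2 of 14 pericyte and smooth muscle markers and 1 of 16 endothelial markers were higher. None of the 12 meningeal and fibroblast or the 11 choroid plexus and ependyma markers was called there.

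The differences of the members were then recomputed with marker means as covariates. With the endothelial and pericyte means, Kcnj8 differed by 0.42 ± 0.16 and Slco1c1 by -0.62 ± 0.22, and neither was called. Without covariates the differences were 0.43 ± 0.10 and -0.66 ± 0.14. The means of both lists were separate between the sedentary lines, so this fit cannot tell line from marker level. With the choroid plexus and meningeal means, Kcnj8 differed by 0.55 ± 0.17, but Slco1c1 by only -0.19 ± 0.17. Slco1c1 was thus the member whose difference was most reduced by a pair of marker means. The meningeal and fibroblast means overlapped little between the sedentary lines (8.67 to 9.84 in SAMR1, 9.72 to 10.63 in SAMP8). This second fit can therefore hardly tell line from marker level either. Wbp11 (0.97 ± 0.19 and 1.00 ± 0.17) and Eps8 (0.87 ± 0.15 and 1.01 ± 0.15) were the only 2 of the 10 still called with either pair. Plekha5 (-1.09 ± 0.27 and -1.21 ± 0.31) and Pde3a (0.70 ± 0.17 and 0.66 ± 0.18) had differences close to or larger than those without covariates but were no longer called. The covariates widened the median standard error over all genes from 0.12 to 0.18, which by itself ends calls.

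**Figure D5:**
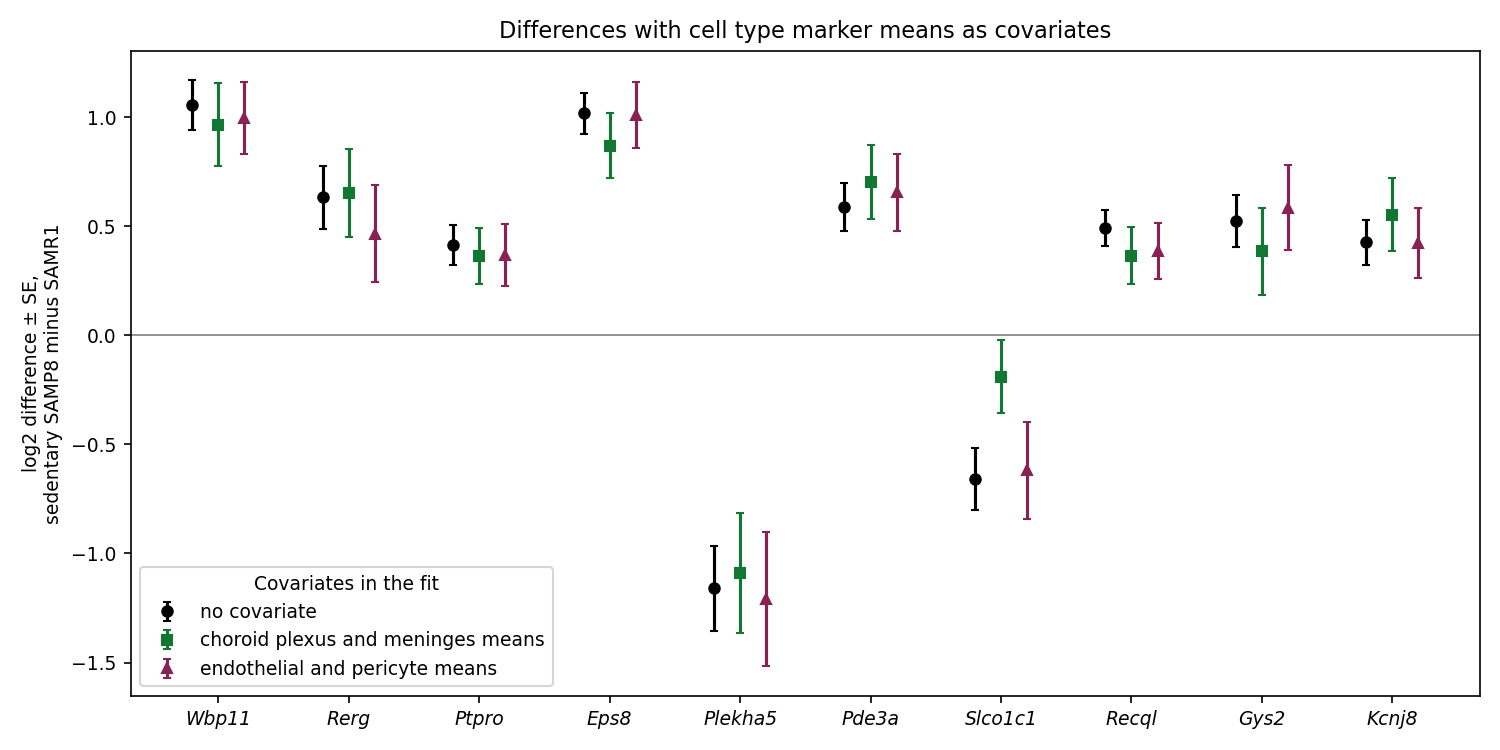
Log2 difference of sedentary SAMP8 minus SAMR1 (vertical axis, ± SE) of the 10 genes without covariates (circles) and after adding the means of choroid plexus and meningeal markers (squares) or of endothelial and pericyte markers (triangles). Slco1c1 moved from -0.66 to -0.19 with the first pair, while Wbp11 stayed between 0.97 and 1.06 and Plekha5 between -1.21 and -1.09.

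The relatives and partners of the members elsewhere in the genome were examined from lists written with earlier results of these data known. Kcnj11, the other pore of the ATP-sensitive potassium channel family (Kir6.2), was higher in sedentary SAMP8 (0.42 ± 0.09, adjusted p = 0.0179), while Abcc8 and Abcc9, the sulfonylurea receptor genes, were not called. Of 15 other glycogen genes, 2 were higher and 1 lower in sedentary SAMP8. Ppp1r3d (0.92 ± 0.11, adjusted p = 7.86e-05) and Ppp1r3g (-1.15 ± 0.14, adjusted p = 5.22e-05), which target protein phosphatase 1 to glycogen, differed in opposite directions, and Nhlrc1, the ubiquitin ligase malin, was higher (0.52 ± 0.10, adjusted p = 0.00601). The medians of these lists, 0.10 over 3 channel genes and -0.05 over 15 glycogen genes, compare with 0.00 over all genes.

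In the other 8 lists no relative was called between the sedentary lines. They were 18 phosphodiesterases, 12 genes of thyroid hormone transport and response, 4 RecQ helicases, 14 Eps8 relatives and actin partners, 9 receptor tyrosine phosphatases, 7 Plekha genes, 13 Ras-like GTPases and 6 splicing partners of Wbp11. The lowest p-values in them included those of Pde7b (0.40 ± 0.12, adjusted p = 0.0950), a dim phosphodiesterase, Plekha6 (0.44 ± 0.13, adjusted p = 0.0949) and Rasl12 (0.53 ± 0.14, adjusted p = 0.0682), a Ras-like GTPase. Between exercised SAMP8 and SAMR1, which share those SAMR1 arrays, Rasl12 was higher (0.61 ± 0.14, adjusted p = 0.0260). No relative in any of the 10 lists was called for exercise against rest within SAMP8 by limma, where 3 had an unadjusted p under 0.05.

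After the group means were taken out, Pearson correlations between members across the 15 arrays ran from -0.71, for Rerg and Ptpro, to 0.56, for Pde3a and Slco1c1. Rerg and Plekha5 had -0.62, and the median over the 45 pairs was 0.08. Each member had its closest matches outside the block. The genes most like Wbp11 were Plpp5 (r = 0.86) and Esr1 (r = 0.84), and those most like Slco1c1 were Inpp4b (r = 0.91) and Tbcel (r = 0.88). For Rerg they were Capn5 (r = 0.93) and Entpd2 (r = 0.91), for Kcnj8 Septin8 and Tmcc3 (both r = 0.89). These are the highest of the correlations over 15 arrays with other genes that have a characterised name, and are given as a description. Genes with predicted or clone-type names were left out of this ranking.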

How the data were processed

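The authors deposited linear intensity values, 1 column per array, from Cy3-labelled cRNA per the labels' protocols. Limma is the tool named in the submitters' processing notes, without a version. Median intensities of the 15 columns are nearly equal. Which normalization and background correction the authors applied is not stated in the labels or headers. Of 45220 rows, 10741 had no value on any array. Rows were named through the platform annotation: 27968 probes with values had 1 symbol, 38 several and 6473 none.

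Intensities were floored at 39.17 and taken to log2. The brightest probe by mean log2 value stood for a gene. All 16401 genes and 15 arrays entered 1 limma fit (version 3.58.1, R 4.3.3; a term per group, eBayes, two-sided), with Benjamini-Hochberg adjustment over all genes and calls at an adjusted p under 0.05. A second fit took every probe. The fits were tested on simulated data. Gene order came from the RefSeq table of GRCm38.p6. The members and gene lists were chosen with earlier results of these data known. Named genes were the members, their neighbours, called relatives and those of lowest p, and the most correlated genes with a characterised name.

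Same-numbered sedentary SAMR1 and SAMP8 arrays deviated together from their group means (r = 0.27, 0.23, 0.38, 0.52 and 0.42 across genes), so these numbers pair the sedentary arrays. The main fit did not use this pairing, and its errors and calls are those of unpaired groups. With a replicate block on the sedentary groups alone, the Wbp11 standard error was 0.06 in place of 0.12. Exercised arrays did not show such pairing at every number (r from -0.10 to 0.37). Their highest values were those of replicate 4, 0.35 with sedentary SAMP8 and 0.37 with SAMR1. No batch is named in the labels. The alternatives changed the floor, probe choice, filter on dim genes, scaling, groups fitted, replicate block, weights, prior and covariates, and left out each array in turn.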

Additional observations from a re-analysis of the deposited data

Results flagged for a closer look

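In 51 sets of 5 arrays, 1 set for each probe and group of the block, a sample standing far from the other 4 was looked for, and 4 were found. Chance alone marks about 1 in 20 such groups. The brightest Plekha5 probe read 12.06 on SAMR1 replicate 5, above the other 4 (11.45 to 11.58). The dimmer Recql probe read 5.40 on exercised SAMP8 replicate 5, below the other 4 (5.82 to 5.90). The dimmer Pde3a probe read 5.49 on the same array (others 5.29 to 5.32) and 5.34 on sedentary SAMP8 replicate 3 (others 5.29 to 5.30), both next to the floor.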

How the results depend on the processing

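Between the sedentary lines, 9 of the 10 members kept their direction under every alternative in which they were tested. The exception was Recql, which stood at 0.00 ± 0.07 with the mean of all probes, with no direction. With the mean of all probes 6 were called. Among them Wbp11, Rerg, Slco1c1 and Gys2 have a single probe with values, so averaging could not change their values. Of the members with several probes, Eps8 and Pde3a stayed called, while Ptpro, Plekha5, Recql and Kcnj8 did not. With either pair of marker covariates 2 were called. The genes called then fell to 132 (choroid plexus and meninges) and 153 (endothelium and pericytes) from 431. Between exercised SAMP8 and SAMR1 the endothelial and pericyte covariates left 3 members called and 163 genes, and the choroid plexus and meningeal covariates 258, of 590. Fitting every probe, which tests more features, called 780 and 1120. Leaving out each array in turn gave 7 to 10 members and 336 to 472 genes between the sedentary lines, 8 to 9 and 406 to 598 for exercised SAMP8 against SAMR1, and 0 to 0 and 0 to 1 for exercise against rest.

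With the replicate block over all arrays, 9 members were called between the sedentary lines. Kcnj8 (0.43 ± 0.11) was the member lost. With the replicate block over the paired sedentary groups alone, 10 members and 648 genes were called. The same replicate block on exercised SAMP8 against SAMR1, whose numbers did not pair throughout, gave 7 members (Rerg lost, 0.64 ± 0.14) and 323 genes. It changed no other call of a member.

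For exercise against rest, where no member was called, some signs turned. Rerg was -0.0208 with array weights, and ranged from -0.128 (without exercised replicate 5) to 0.0850 when arrays were left out in turn, with values of -0.0147 and -0.0610 without sedentary SAMP8 replicates 2 and 4. Plekha5 ranged from -0.304 to 0.0435 (without exercised replicate 5). Eps8 was 0.00576 with the mean of all probes and 0.00932 with the choroid plexus and meningeal covariates. With the mean of all probes Recql was -0.0655 for exercise against rest and -0.0613 for exercised SAMP8 against SAMR1, since its probes differed in opposite directions. Signal near the floor limits Pde3a and Gys2, which were not tested when the dimmest 40% of genes were left out.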

Other observations

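Abcb1a, the P-glycoprotein drug pump of brain vessel endothelium on another chromosome, differed more than any member of the block, by 1.28 ± 0.07 in sedentary SAMP8. It was at the floor on 4 of 15 arrays, so this size depends on the floor. Of the pericyte and smooth muscle markers, Pdgfrb, the receptor for platelet-derived growth factor B, was higher by 0.82, Rgs5 by 0.63 and Vtn, vitronectin, by 0.88. The list as a whole was mixed: 9 of its 14 markers were not called, the median difference was 0.38 and the lowest was -0.18. Meningeal and fibroblast markers were lower in exercised than in sedentary SAMP8 in 12 of 12, with a median difference of -0.60, but 0 of 12 were called by limma and 4 had an unadjusted p under 0.05.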
